A study of Rattus norvegicus with 12 samples.

Results

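Stromal genes picked for a lower signal in macrophage (Mφ)-depleted than in whole suspensions, by more in nonpregnant (NP) than in prepartum rats, were followed through 4 groups of rat cervix. The 10 genes were Clmp (named Asam in the array files), Mrc2, Cd34, Pdgfra, Pdgfrb, Thy1, Dpt, Pcolce, Vim and S100a4. All probes that the array files give one of these names were taken, which made 11 of 30367 probes and 10 of 26612 gene names. Adult female Sprague Dawley rats were either in proestrus (NP) or on day 21 after breeding (D21, the day before expected birth). Cervices of all rats were dispersed with collagenase and DNase, and for 3 rats in each state the suspension was frozen whole. For 3 other rats in each state, cells that bound the ED1 antibody were held on magnetic beads and the remaining suspension was frozen (Mφ-depleted). Whole suspensions did not go through the antibody and bead steps, and each of the 12 arrays held 1 rat. D21 whole rats are numbered 5, 6 and 7, D21 Mφ-depleted rats 1, 2 and 4, NP whole rats 8, 9 and 10, and NP Mφ-depleted rats 5, 6 and 7. The same number in different groups marks different animals.

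Fibroblasts of the cervix make and turn over the collagen-rich matrix that gives the tissue its strength, and this matrix is remodeled before birth. They are recognised by growth factor receptors such as the PDGF receptors, by surface glycoproteins such as Thy1 and Cd34, by collagen-handling proteins such as Mrc2, Pcolce and Dpt, and by the cytoskeletal protein Vim. None of these genes belongs to fibroblasts alone, since pericytes, endothelial cells, smooth muscle cells and leukocytes carry some of them.

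The genes had been picked from these arrays, around Clmp, Mrc2 and Cd34, for the difference between whole and Mφ-depleted cervix in D21 and NP rats. Those differences are therefore given as a description without a test, and there was no numerical limit for a gene to be included. Values are log2 intensities relative to each array's 75th percentile, so that 0 is the level of that percentile, and they compare groups for 1 probe but not 1 probe with another. A gene is called where the adjusted p of limma, over all genes tested, is below 0.05. The 75th percentile ranged from 289.8 to 1170.6 intensity units over the 12 arrays, and between 44.9% and 61.7% of probes were rated well above background. The number of arrays limits the precision. In such mixed suspensions, fewer cells of a type and less RNA per cell cannot be told apart.

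Because a 60-base probe reads 1 short stretch of each transcript, the probes of the 3 genes on which the choice was built, with those of Thy1 and Vim, which behaved differently from them, are shown as the array files give them, 5′ to 3′. Each has a reading frame without a stop, except that the Mrc2 probe ends on a stop codon in frame, here in capitals.
Clmp: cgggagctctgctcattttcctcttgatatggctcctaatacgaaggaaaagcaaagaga
Mrc2: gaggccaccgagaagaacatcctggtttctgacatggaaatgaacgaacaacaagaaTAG
Cd34: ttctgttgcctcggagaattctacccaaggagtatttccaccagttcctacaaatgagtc
Thy1: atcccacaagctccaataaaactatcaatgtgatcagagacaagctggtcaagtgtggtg
Vim: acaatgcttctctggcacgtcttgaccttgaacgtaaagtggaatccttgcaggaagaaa
The array files place probes on the rn4 build, where the Clmp probe lies on the plus strand of chromosome 8, 43765465 to 43765524, the Mrc2 probe on the plus strand of chromosome 10, 94752017 to 94752076, and the Cd34 probe on the plus strand of chromosome 13, 110885750 to 110885809. The Vim probe covers chromosome 17, 87851390 to 87851449. The 60 bases of the Thy1 probe span 461 bases of chromosome 8, from 47031186 to 47031646, so that it crosses a splice junction. No probe of the 10 genes was saturated on any array.

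Clmp, Mrc2 and Cd34 had overlapping levels in whole cervix of both states, and their levels after Mφ removal were lower in NP than in D21 rats. For Cd34 the size of this gap is known only as a lower limit, given below. Clmp encodes a cell adhesion molecule of the CTX family that is found at tight junctions. Its log2 intensity in whole cervix was 0.69, 0.06 and 0.10 in D21 rats 5, 6 and 7, and 0.48, 0.47 and 0.46 in NP rats 8, 9 and 10. In Mφ-depleted cervix it was -1.94, -1.39 and -1.48 in D21 rats 1, 2 and 4, and -4.96, -6.17 and -5.05 in NP rats 5, 6 and 7. The whole groups overlapped, every Mφ-depleted rat lay below every whole rat, and every NP Mφ-depleted rat lay below every D21 Mφ-depleted rat. Whole cervix was thus higher than Mφ-depleted cervix by 1.89 in D21 rats and by 5.86 in NP rats on the log2 scale (standard error 0.33 each), and the difference between NP and D21 rats was 3.97 (standard error 0.47). Only 1 of the 3 NP Mφ-depleted arrays, that of rat 5, was well above background for Clmp. With normexp background correction, which adds an offset of 50 intensity units before the log2 and so draws dim values together, the depletion difference of Clmp was 1.11 in D21 and 3.48 in NP rats.

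Mrc2 encodes an endocytic receptor of the mannose receptor family that takes up collagen. Its log2 intensity was -0.34, -0.41 and -0.53 in whole D21 cervix and -2.12, -1.95 and -1.91 once Mφ were removed. In NP rats it was 0.12, -0.61 and 0.19 in whole cervix and -4.05, -4.53 and -4.96 after Mφ removal, with 2 of these last 3 arrays well above background. The order of the groups was as for Clmp. The depletion difference was 1.56 in D21 and 4.41 in NP rats (standard error 0.28 each), and with normexp 0.82 and 2.68.

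Cd34 encodes a sialomucin of blood progenitors, endothelium and adventitial fibroblasts. It gave -1.51, -1.65 and -2.04 in whole and -3.83, -3.80 and -3.13 in Mφ-depleted D21 cervix. NP whole cervix gave -0.69, -2.31 and -0.60, and rat 9 was the low one. No NP Mφ-depleted array was well above background for Cd34, with measured values of -6.82, -6.39 and -4.72. The fold is therefore a bound. On each dim array the Cd34 signal was replaced by the dimmest signal that counted as well above background there, unless its own was higher, and the mean of the brighter group was set against it. By this bound Cd34 in whole cervix of NP rats was at least 9.29-fold higher, and among Mφ-depleted rats at least 1.78-fold higher in D21 than NP. In D21 rats whole cervix exceeded Mφ-depleted cervix by 1.85 (standard error 0.56), with no overlap, but by 0.29 with normexp and by 0.15 with slide as a block.

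**Figure D1:**
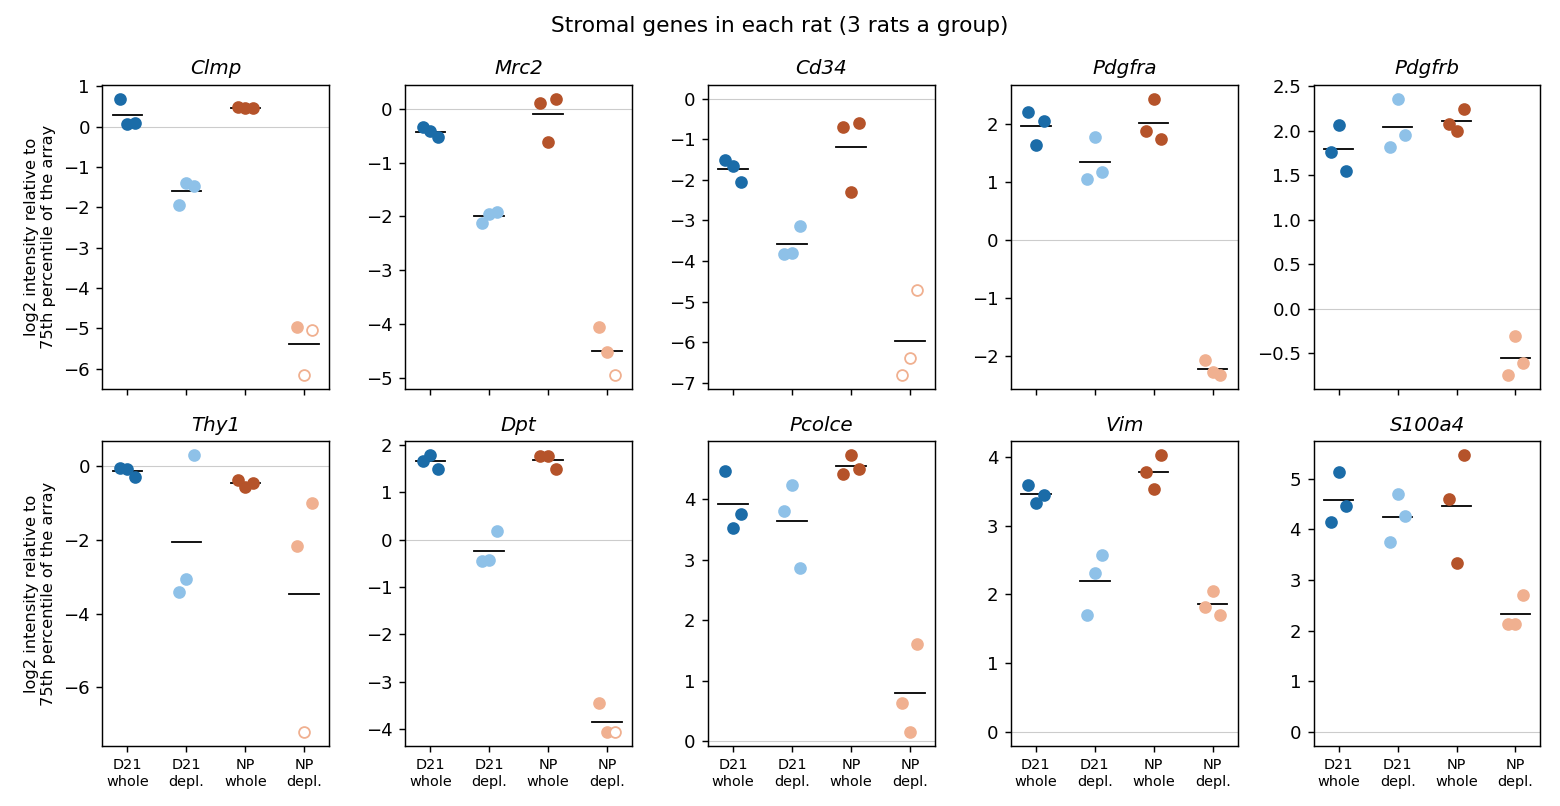
Log2 intensity relative to each array's 75th percentile (vertical axis, a scale of its own in each panel) for the 10 stromal genes in the 4 groups, a point for each rat and a line at the group mean. Open points were not well above background. For Clmp the NP Mφ-depleted rats lie between -6.17 and -4.96, below the D21 Mφ-depleted rats at -1.94 to -1.39, whereas for Vim these 2 groups overlap.

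For both PDGF receptor genes whole and Mφ-depleted cervix overlapped in D21 rats and were far apart in NP rats. They encode receptor tyrosine kinases for platelet-derived growth factors, Pdgfra mainly on fibroblasts and Pdgfrb also on pericytes. Pdgfra gave 2.21, 1.64 and 2.04 in whole D21 cervix and 1.05, 1.78 and 1.17 once Mφ were removed. In NP rats it gave 1.87, 2.43 and 1.74 in whole cervix and -2.06, -2.27 and -2.33 after Mφ removal, with all arrays well above background. The signal left was 64.6% in D21 and 5.33% in NP rats, depletion differences of 0.63 and 4.23 (standard error 0.28 each).

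Pdgfrb gave 1.76, 2.06 and 1.55 in whole cervix but 1.82, 2.36 and 1.95 in Mφ-depleted D21 cervix. It was the 1 gene of the 10 with a higher mean after Mφ removal in D21 rats, by 0.26 on the log2 scale (standard error 0.24), with the groups overlapping. In NP rats it gave 2.08, 2.00 and 2.25 in whole and -0.75, -0.31 and -0.61 in Mφ-depleted cervix, a difference of 2.66 (standard error 0.23) that left 15.8% of the signal. The 7 genes of the pericyte list had median depletion differences of 0.93 in D21 against 2.46 in NP rats, but they did not move alike. By limma 3 were higher and 1 lower in whole cervix of D21 rats, against 11.9% and 10.6% of all genes. In NP rats 5 were higher and 1 lower, against 17% and 15.8%. The part of pericytes in the Pdgfrb values was not tested.

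Dpt and Pcolce, both secreted proteins of collagen assembly, were far lower after Mφ removal in NP rats, whereas in D21 rats the groups were apart for Dpt and overlapped for Pcolce. Dpt encodes dermatopontin, which binds decorin and helps collagen fibrils form. It gave 1.67, 1.78 and 1.50 in whole and -0.45, -0.43 and 0.18 in Mφ-depleted D21 cervix, against 1.76, 1.77 and 1.49 and -3.44, -4.06 and -4.06 in NP rats. The depletion difference was 1.88 in D21 (standard error 0.26) and 5.53 in NP rats (standard error 0.25), and 2 of 3 NP Mφ-depleted arrays were well above background. Pcolce encodes the enhancer of the proteinase that removes the carboxyl propeptide of procollagen. Its brighter probe gave 4.47, 3.53 and 3.76 in whole and 3.81, 4.24 and 2.87 in Mφ-depleted D21 cervix, an overlap with 82.2% of the signal left. In NP rats the values were 4.42, 4.73 and 4.50 in whole and 0.63, 0.15 and 1.61 in Mφ-depleted cervix, with 7.41% left. The other Pcolce probe gave depletion differences of 0.25 in D21 and 3.5 in NP rats, close to the 0.28 and 3.75 of the brighter one.

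Thy1, Vim and S100a4 showed the pattern least clearly. Thy1 encodes a surface glycoprotein of fibroblasts that is also carried by thymocytes and neurons. It gave -0.05, -0.07 and -0.31 in D21 and -0.37, -0.58 and -0.45 in NP whole cervix. After Mφ removal D21 rats 1, 2 and 4 gave -3.42, -3.05 and 0.29, and NP rats 5, 6 and 7 gave -2.16, -7.21 and -1.01, the value of rat 6 being below the background limit. The Mφ-depleted rats thus spread over several log2 units within each state, and the difference between NP and D21 rats, 1.08, was smaller than its standard error of 1.91. Without NP Mφ-depleted rat 6 it was -0.80, and without NP Mφ-depleted rat 7 it was 2.30. D21 rat 4 and NP rat 7, the Mφ-depleted rats with the highest Thy1, were also the ones scanned on the same day as the whole arrays. On the arrays of that day alone, the Thy1 depletion difference was -0.43 in D21 and 0.55 in NP rats.

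Vim, the intermediate filament protein of mesenchymal cells and of leukocytes, gave 3.59, 3.33 and 3.44 in whole and 1.70, 2.31 and 2.57 in Mφ-depleted D21 cervix. NP rats gave 3.78, 3.53 and 4.02 in whole and 1.82, 2.05 and 1.70 in Mφ-depleted cervix. Vim was lower after Mφ removal in both states, where the Mφ-depleted groups overlapped, with 41.9% of the whole signal left in D21 and 26.4% in NP rats. The difference between states was 0.67 (standard error 0.37). S100a4 encodes a calcium-binding protein of fibroblasts and leukocytes. It gave 4.15, 5.13 and 4.45 in whole and 3.74, 4.69 and 4.27 in Mφ-depleted D21 cervix, which overlapped, and 4.60, 3.33 and 5.46 against 2.14, 2.13 and 2.70 in NP rats. Its depletion difference was 0.34 in D21 and 2.14 in NP rats (standard error 0.48 each).

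Over the 10 genes, the median depletion difference was 1.41 in D21 against 3.99 in NP rats, with 2.92 as the median of the differences between states. Over all genes tested these medians were -0.06, -0.04 and 0.05. All 10 genes had no overlap between whole and Mφ-depleted cervix in NP rats, and 5 (Clmp, Mrc2, Cd34, Dpt and Vim) had none in D21 rats. Whole cervix lay above Mφ-depleted cervix without overlap for 23% of all genes in NP and 21.3% in D21 rats, and since these contrasts chose the genes nothing is read from the counts. The mean level of the 10 genes was 1.53 ± 0.13 in D21 whole, 0.40 ± 0.33 in D21 Mφ-depleted, 1.73 ± 0.22 in NP whole and -2.10 ± 0.51 in NP Mφ-depleted cervix (SD, n = 3). In whole cervix D21 minus NP ranged from -0.63 for Pcolce to 0.32 for Thy1 (median -0.25), and in Mφ-depleted cervix from 0.34 for Vim to 3.79 for Clmp (median 2.56). In Mφ-depleted cervix 8 of the 10 genes, all but Thy1 and Vim, had every D21 rat above every NP rat, against 9.53% of all genes, and as whole cervix differed little this gap is largely the difference that chose the genes, so nothing is read from this count either.

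**Figure D2:**
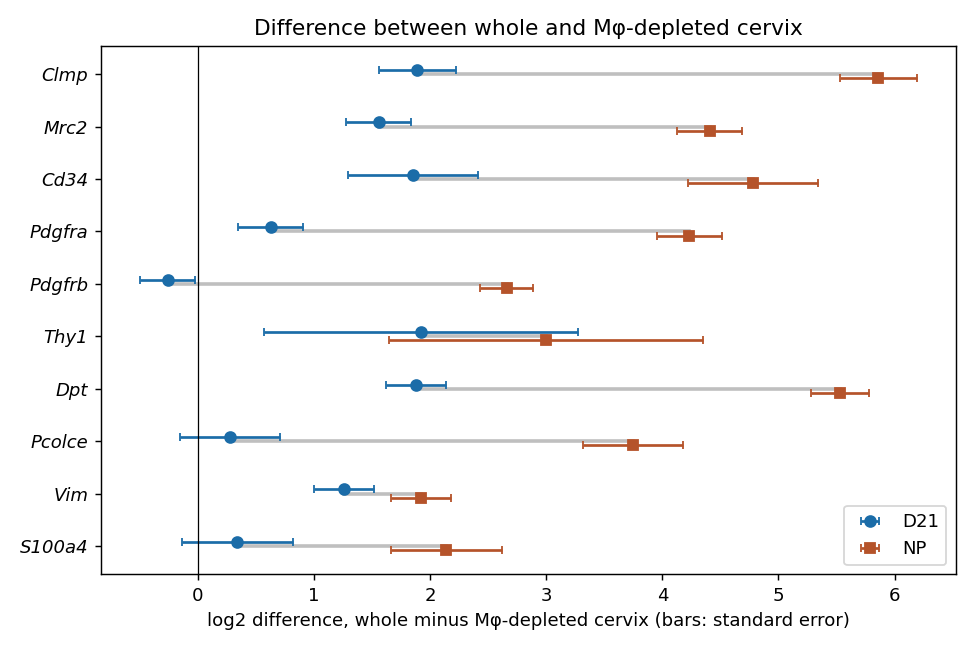
Log2 difference between whole and Mφ-depleted cervix (horizontal axis) for each of the 10 genes in D21 (circles) and NP rats (squares), with bars for the standard error. The NP difference exceeds the D21 difference for every gene, from 0.67 for Vim to 3.97 for Clmp, and the bars of Thy1 overlap.

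Slides and scan days moved with the groups. The 6 whole arrays and the Mφ-depleted arrays of D21 rat 4 and NP rat 7 were scanned on 1 day, and the other 4 Mφ-depleted arrays on 2 other days. No slide held both whole and Mφ-depleted arrays of D21 rats. The D21 whole arrays shared slide 2 with NP whole rat 10 only, while NP whole rats 8 and 9 were on slide 1. D21 values with slide as a block therefore rest on NP whole rat 10 against NP whole rats 8 and 9. With slide as a block the median depletion difference of the 10 genes was 0.52 in D21 and 3.64 in NP rats. A block for scan day gave 0.84 and 3.77. On the last scan day, with 3 whole rats against 1 Mφ-depleted rat, it was 0.97 and 3.23. The median of the differences between states was 3.29, 3.02 and 2.50 in the same order. The depletion difference of Thy1 in D21 rats was -0.55 with slide and -0.53 with scan day as a block, that of S100a4 -1.47 and 0.02, and that of Cd34 0.15 and 1.05. On slide 3, which held D21 rat 2 and NP rats 5 and 6, Mφ-depleted cervix was higher in D21 by a median of 2.84, and on slide 1, with D21 rat 4 and NP rat 7, by 2.08, with all 10 genes higher in D21 on both slides. Leaving out D21 Mφ-depleted rat 1, the median in D21 rats was 1.12, and leaving out rat 4 it was 1.53.

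The average of D21 minus NP over whole and Mφ-depleted cervix was 1.80 for Clmp and Dpt, 1.75 for Pdgfra, 1.14 for Pdgfrb, 1.10 for Mrc2 and Pcolce, 1.01 for S100a4, 0.93 for Cd34, 0.86 for Thy1 and 0.01 for Vim. By its arithmetic this average contains part of the difference that chose the genes, and with whole cervix near 0 it consists mostly of the difference in Mφ-depleted cervix. It is therefore a description of the 10 genes and no test of them. The limma fit over all genes placed 6 of the 10 past its threshold on the higher side (Clmp, Mrc2, Pdgfra, Pdgfrb, Dpt and Pcolce) and none on the lower, against 5.66% and 2.53% of all 14563 genes tested, and nothing is read from this count. Over all genes 824 were higher and 368 lower, and with arrays scaled on the probes detected on all of them the split was 671 and 615.

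**Figure D3:**
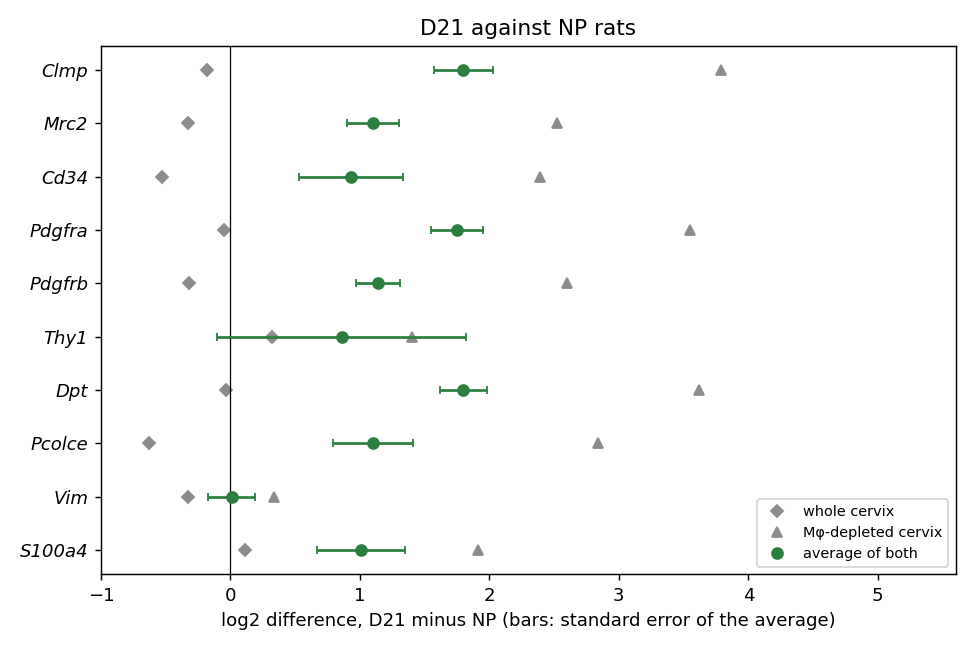
Log2 difference D21 minus NP (horizontal axis) for the 10 genes in whole cervix (diamonds), in Mφ-depleted cervix (triangles) and as their average (circles, with the standard error). The whole-cervix differences lie near 0 while the Mφ-depleted differences reach 3.79.

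Other fibroblast genes were read from lists drawn up with earlier results of these arrays known. In the fibroblast matrix list, 16 of 17 genes tested in NP rats were higher in whole cervix (limma, median 3.93) and 8 of 18 in D21 rats (median 1.09), against 17% and 11.9% of all genes, and none was lower. The depletion difference was greater in NP than D21 rats for 9 of 18, against 1.97% of all genes, and smaller for none, against 0.439%. Collagen genes led this difference. Col1a2, 1 of the chains of type I collagen, had a log2 intensity of 6.47, 6.07 and 5.31 in whole and 6.79, 7.05 and 5.90 in Mφ-depleted D21 cervix, which overlapped, but 6.78, 5.48 and 6.58 against 1.98, 1.42 and 3.64 in NP rats. The difference between states was 4.56 (standard error 0.82, adjusted p = 0.0177 from limma). Col5a1, a chain of the fibril-starting type V collagen, had 3.88 (adjusted p = 0.00793) and Col1a1 3.86 (adjusted p = 0.0114). Postn, Lum and Mfap4, of periostin, lumican and a microfibril glycoprotein, had the largest depletion differences in D21 rats, 4.98, 3.26 and 2.45, and in NP rats 6.24, 4.73 and 4.92. Their differences between states were not called (adjusted p = 0.37, 0.246 and 0.0806). For Postn 2 of 3 NP Mφ-depleted arrays were well above background. Fbln2 was the 1 matrix gene tested that was not called in NP rats (0.09, adjusted p = 0.856), named after its values were seen.

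In the fibroblast identity list 16 of 20 genes were higher in whole cervix of NP rats (median 3.32), against 17% of all genes. In D21 rats 8 of 20 were higher (median 0.93), against 11.9%. The difference between states was called for 10 of 20, all greater in NP, against 1.97% of all genes. Twist2, a mesenchymal transcription factor, had depletion differences of 1.89 in D21 and of 5.71 in NP rats (difference 3.82, adjusted p = 0.0166 from limma). Twist1 had 1.40 and 4.25 (difference 2.85, adjusted p = 0.00605), with 2 of 3 NP Mφ-depleted arrays well above background. Ddr2, a collagen receptor kinase, had -0.15 and 3.30 (difference 3.45, adjusted p = 0.00793), with 2 of 3 NP Mφ-depleted arrays well above background. Igfbp4, which binds insulin-like growth factors, had -0.02 and 3.32 (difference 3.34, adjusted p = 0.00982). Fap, a fibroblast surface peptidase, had 2.45 and 4.81, and its difference between states was not called (adjusted p = 0.099). Only 2 of 3 D21 and 1 of 3 NP Mφ-depleted arrays were well above background for Fap. Fstl1 and C1s were called in D21 rats with 2.62 and 2.31. In the average of D21 over NP, 12 of 18 matrix genes and 9 of 20 identity genes were higher and none was lower. Of all genes tested, 5.66% were higher and 2.53% lower. In these lists the largest were Pi16 (2.56), Igfbp6 (2.30), Postn (2.24), Col1a2 (1.95), Mmp2 (1.90) and Col1a1 (1.83). As for the 10 genes, this average contains part of the difference between states. In whole cervix alone the median of D21 minus NP was -0.1 for 18 matrix and 0.16 for 20 identity genes, against -0.08 for all genes. In Mφ-depleted cervix it was 2.68 for 17 matrix and 2.07 for 19 identity genes, against 0.02 for all genes. With whole cervix near 0, this gap is largely the difference between states. Col1a2 gave -0.33 in whole and 4.23 in Mφ-depleted cervix, and Pi16 2.18 and 2.94. List genes called for this average numbered 25 over the 6 lists, against 9 with slide as a block, 25 under a scan day block and 12 on the last scan day alone.

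Whether list genes were called depended on how slide and scan day were handled. For 23 genes of the 6 lists the depletion difference differed between states, by 1.84 to 4.56 without a block. All kept their sign with slide as a block (1.72 to 4.65) or scan day (1.82 to 4.35) and on the last scan day alone (0.81 to 3.69). Of the 23, 3 were still called with slide and 18 with scan day as a block. With slide as a block Dcn, named after its values were seen, Mmp2 and Twist1 were those 3. In NP rats 47 of the 63 list genes tested were called in either direction, against 32.8% of all genes. With slide and scan day as a block they were 45 and 44. In D21 rats 23 of the 66 list genes tested were called, against 22.4% of all genes. These became 1 with slide and 9 with scan day as a block.

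Genes that work with the 10 genes were less uniform. Of the PDGF ligands, which bind Pdgfra and Pdgfrb, Pdgfc was higher in whole cervix by 1.74 in D21 and 1.54 in NP rats. Pdgfd did not pass background on any Mφ-depleted array, so that in NP rats whole cervix was at least 5.69-fold higher. Limma was run on the measured Pdgfd difference in NP rats, 3.38 (adjusted p = 0.000309), and did not test this bound. That difference rests on Mφ-depleted values that were not well above background. Pdgfa in D21 rats was lower in whole cervix by 1.81 (adjusted p = 0.0329) and not called in NP rats (-0.51, adjusted p = 0.477). None of 4 ligand genes was called for the difference between states by limma, 0 also at an unadjusted p below 0.05. The list of procollagen processing and collagen uptake held the partners of Pcolce and Mrc2. In NP rats 7 of its 13 genes tested were higher and 1 lower in whole cervix, against 17% and 15.8% of all genes. In D21 rats 2 of 13 were higher and 1 lower, near the 11.9% and 10.6% of all genes. Ctsk, a collagen-degrading cathepsin, had the largest difference between states (4.07, adjusted p = 0.00745 from limma), from 1.11 in D21 and 5.18 in NP rats. Plod2, a collagen lysyl hydroxylase, had 0.96 and 4.53 (difference 3.57, adjusted p = 0.0156). Adamts2, which removes the amino propeptide of procollagen, had 1.79 and 4.21 (difference 2.42, adjusted p = 0.0418). Its average of D21 over NP was 2.14 (adjusted p = 0.00194), which contains part of that difference. In whole cervix alone D21 minus NP was 0.93 for Adamts2 (not called, adjusted p = 0.173), and in Mφ-depleted cervix 3.35. Fkbp10, a collagen chaperone, was higher in whole cervix by 1.93 in D21 and 3.45 in NP rats (difference not called, adjusted p = 0.136). Plaur, the urokinase receptor that partners Mrc2, was lower in whole cervix of D21 rats by 2.44 (adjusted p = 0.0197).

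The families of Clmp and Cd34 were read in the same way. In NP rats 3 of 6 CTX family adhesion genes tested and 2 of 4 sialomucins were called, against 32.8% of all genes. Jam3, of the CTX family, had depletion differences of 2.64 in D21 and 3.07 in NP rats, with 2 of 3 NP Mφ-depleted arrays well above background. Igsf11 was higher by 1.66 and F11r lower by 1.14 in NP rats, and the difference between states was called for none of 8 genes tested by limma and had an unadjusted p below 0.05 for 3. Vsig2 was well above background on no NP Mφ-depleted and 1 NP whole array, so that among Mφ-depleted rats it had a bound of at least 8.37-fold for D21 over NP. In whole cervix its measured level was also higher in D21, by 3.02 (adjusted p = 0.00201 from limma). The depletion difference of Vsig2 differed between states by 0.54 (not called, adjusted p = 0.558). Of 4 genes of the Cd34 family and other sialomucins, Emcn had depletion differences of 1.70 and 1.86 and Podxl2 of 1.02 and 1.34, the D21 value of Podxl2 not being called (adjusted p = 0.088). None of the 4 was called for the difference between states, and 0 had an unadjusted p below 0.05.

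Marker lists of other cell types were read beside the 10 genes. Mφ genes were lower after the separation in both states, by a median of 4.65 in D21 (12 of 15 genes called) against 5.59 in NP rats (11 of 13 called). Of all genes, 11.9% were called higher in whole cervix in D21 and 17% in NP rats. The difference between states was called for 0 of 15 by limma and had an unadjusted p below 0.05 for 1. Of the 16 genes of this list, 3 in D21 and 5 in NP rats were well above background on no Mφ-depleted array. For such genes the loss is cut off at background and a difference between states could hardly show, so nothing is read from this count. Their summed level was 94.3 to 110 in D21 whole, 11.6 to 17 in D21 Mφ-depleted, 85.2 to 153 in NP whole and 5.26 to 15.8 in NP Mφ-depleted cervix, in multiples of the 75th percentile. Csf1r, the receptor of the Mφ growth factor, had depletion differences of 6.74 and 6.68, with 1 Mφ-depleted array of each state well above background. Mrc1, the Mφ paralog of Mrc2, had a bound of at least 22.3-fold in D21 rats and 7.19-fold in NP rats for whole over Mφ-depleted cervix, with no Mφ-depleted array well above background. Cd163, a scavenger receptor, had 5.28 in D21 rats, and the bound in NP rats was at least 2.49-fold, where 2 of 3 whole arrays were well above background. Cd68, the transcript of the ED1 antigen, had -0.15 and 0.54 and was not called.

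Smooth muscle genes had median depletion differences of 2.34 in D21 against 4.50 in NP rats. Higher in whole cervix were 7 and 10 of 10, against 11.9% and 17% of all genes. For the difference between states 5 of 10 were called, all greater in NP, against 1.97% of all genes. Their summed level was 293 to 399 in D21 whole, 44.7 to 160 in D21 Mφ-depleted, 436 to 685 in NP whole and 21.4 to 28.6 in NP Mφ-depleted cervix. Endothelial genes, which bear on Cd34, had medians of 0.78 and 0.27 and none of 10 was called for the difference (1 at an unadjusted p below 0.05). Epithelial genes were lower in whole cervix, with medians of -0.69 in D21 and -1.28 in NP rats. Called lower were 4 of 10 in D21 and 7 of 10 in NP rats, against 10.6% and 15.8% of all genes. In D21 rats 1 of 10 was called higher, near the 11.9% of all genes. Their summed level was 126 to 398 in NP whole and 449 to 959 in NP Mφ-depleted cervix. Immediate-early genes were lower in whole cervix for 8 of 8 in both states (medians -2.66 and -3.02), against 10.6% and 15.8% of all genes. Housekeeping genes had medians of 0 and 0.06, and 0 of 8 was called in either state by limma, with 1 and 3 at an unadjusted p below 0.05. All genes called in either direction were 22.4% in D21 and 32.8% in NP rats. The part of smooth muscle, epithelial cells and immediate-early induction in the values of the 10 genes was not tested.

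**Figure D4:**
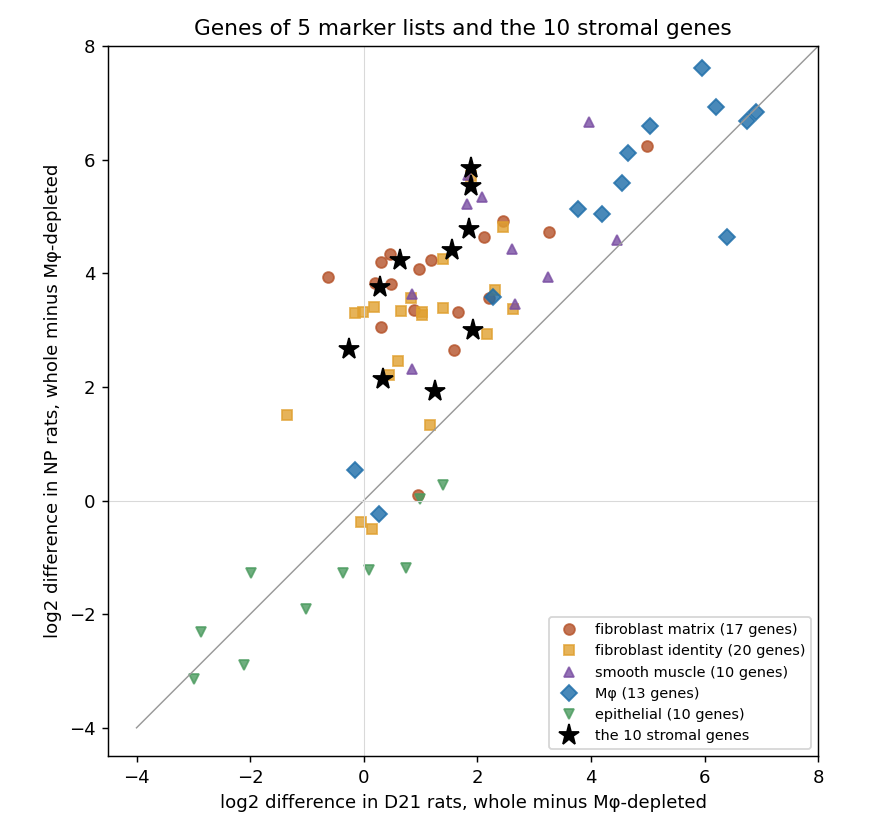
Log2 difference between whole and Mφ-depleted cervix in D21 (horizontal axis) and NP rats (vertical axis), a point for each gene of 5 marker lists and a star for each of the 10 stromal genes, with the line of equal differences. The 10 stromal genes all lie above the line, up to 5.86 in NP rats for Clmp, Fbln2 of the matrix list lies below it at 0.96 and 0.09, and Mφ genes had medians of 4.65 and 5.59. The loss of Mφ genes is cut off where Mφ-depleted values reach background.

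**Figure D5:**
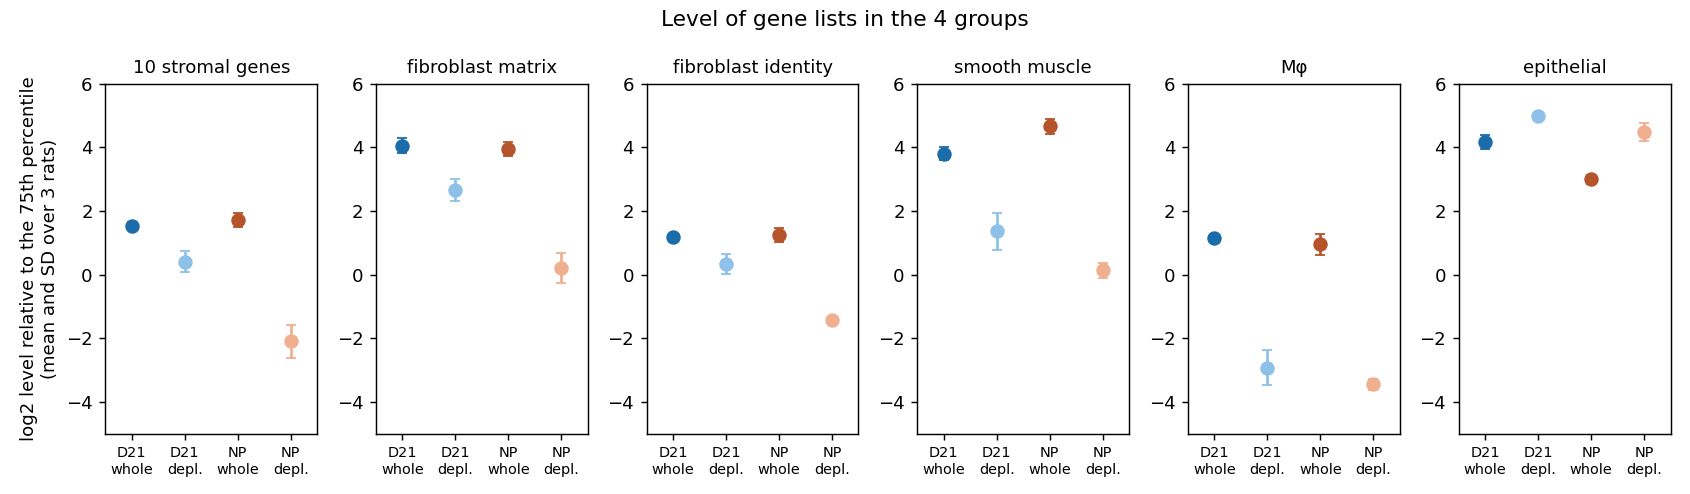
Mean log2 level relative to the 75th percentile (vertical axis) of the 10 genes and of 5 marker lists in the 4 groups, with bars for the SD over 3 rats. The 10 genes drop to -2.10 in NP Mφ-depleted cervix against 0.40 in D21 Mφ-depleted cervix, while Mφ genes lie at -3.45 and -2.92. Of 16 Mφ genes, 5 in NP and 3 in D21 rats were well above background on no Mφ-depleted array.

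Over the 12 arrays, which share groups, the 45 pairs of the 10 genes had a median Pearson correlation of 0.864 (0.457 for Pdgfrb with Thy1, 0.991 for Clmp with Dpt). About the group means the median was 0.136, with a range from -0.542 to 0.774. The genes most like Clmp among 14475 others were Serpinf1 (0.991), Mfap2 (0.989), Col3a1 and Col6a1 (0.986 each) and Jazf1 (0.984). Those most like the mean of the 10 genes were Col6a1 (0.990), Gpm6b, Col3a1, a transcript named by an Ensembl identifier, Gpr153, Fads2, Cpq, Serpinf1, Tmem119 and Krt85 (0.980). Depletion differences of Serpinf1 were 1.40 in D21 and 4.98 in NP rats, and those of Col6a1 1.19 and 4.24, against 1.89 and 5.86 for Clmp. Since these genes were picked for their likeness, the values are a description.

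Promoters are shown for Dpt and Pdgfra, which had depletion differences of 1.88 and 0.63 in D21 rats and of 5.53 and 4.23 in NP rats. RefSeq sequences of the GRCr8 build were at hand for 6 of the 10 genes (Cd34, Dpt, Pcolce, Pdgfra, S100a4 and Vim). The 250 bases before the start are printed on the gene's strand, with matches to 5 motifs on both strands in capitals. The TATA box was searched as TATAAA. The GC box was searched as GGGCGG. The E-box, the kind of site that Twist factors bind, was searched as CANNTG. The AP-1 site was searched as TGANTCA, and the CArG box of serum response factor was searched too.
Dpt, chr13:79656091-79656340, plus strand: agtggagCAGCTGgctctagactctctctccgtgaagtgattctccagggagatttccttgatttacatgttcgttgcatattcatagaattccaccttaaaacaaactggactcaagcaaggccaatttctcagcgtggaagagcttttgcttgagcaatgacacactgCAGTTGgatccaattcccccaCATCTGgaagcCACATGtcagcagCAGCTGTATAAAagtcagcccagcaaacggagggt
Pdgfra, chr14:33408517-33408766, minus strand: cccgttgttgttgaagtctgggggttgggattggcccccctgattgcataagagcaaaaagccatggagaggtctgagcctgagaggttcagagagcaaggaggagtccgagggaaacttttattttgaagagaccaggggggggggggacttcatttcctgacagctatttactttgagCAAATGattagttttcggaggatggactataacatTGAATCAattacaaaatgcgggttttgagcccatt
The Dpt window held 5 E-boxes and a TATA box that directly follows the last E-box, and the Pdgfra window held 1 E-box and 1 AP-1 site. Of 33469 promoters in the table, 65.5% held an E-box, 12.9% a TATA box, 30.5% a GC box, 6.34% an AP-1 site and 1.5% a CArG box in these 250 bases. E-boxes numbered 4 in Pcolce, 1 in Cd34 and 0 in Vim and S100a4, and no CArG box was matched in the 6 windows. The GC content was 47.2% in Dpt and in Pdgfra, 62.4% in Vim and 64.8% in Cd34, around a median of 51.2% for all promoters. Such matches describe letters only, and binding was not measured.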

How the data were processed

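RNA of 12 cell suspensions, 3 rats in each of 4 groups, had been hybridized to 1-colour Agilent arrays. The authors deposited Feature Extraction intensities, background-subtracted and not normalized between arrays, and a table of the ratio of each intensity to the array's 75th percentile. Here each log2 intensity was expressed against its array's 75th percentile, outlier spots were left out, spots of a probe were averaged and the brightest probe stood for a gene. Genes that 1 of the groups compared had well above background on its 3 arrays were tested with limma 3.58.1 (R 4.3.3) on 4 group means over the 12 arrays, with Benjamini-Hochberg adjustment and a threshold of 0.05. The script was tested on simulated data. Named genes were the 10, the 3 called with the largest change per pathway list and comparison, 4 Mφ genes (Csf1r, Cd163, Mrc1 and Cd68) and the 5 and 10 most correlated with Clmp and with the mean of the 10. The 10 genes and all lists were chosen with earlier results of these data known. Alternatives changed background correction, scaling, filter, probe choice, weights, batch block, test and rats left out. Groups came from the sample labels. Promoters came from RefSeq (GRCr8).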

Additional observations from a re-analysis of the deposited data

Results flagged for a closer look

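The depletion difference (whole minus Mφ-depleted cervix, log2) was greater in NP than in D21 rats by limma's test of the difference itself for these genes of the stromal lists that are named by the rule. In the matrix list they were Col1a2 (4.56, adjusted p = 0.0177), Col5a1 (3.88, adjusted p = 0.00793) and Col1a1 (3.86, adjusted p = 0.0114). In the identity list they were Twist2 (3.82, adjusted p = 0.0166), Ddr2 (3.45, adjusted p = 0.00793), Igfbp4 (3.34, adjusted p = 0.00982), Twist1 (2.85, adjusted p = 0.00605) and Mmp2 (2.75, adjusted p = 0.00802). In the list of procollagen processing and collagen uptake they were Ctsk (4.07, adjusted p = 0.00745), Plod2 (3.57, adjusted p = 0.0156) and Adamts2 (2.42, adjusted p = 0.0418). The lists were drawn up with earlier results of these arrays known, so these p values are no independent support for the difference. For Twist1 and Ddr2 only 2 of 3 NP Mφ-depleted arrays were well above background. Whether these genes were called depended on the setting. With slide as a block 2 of the 11 genes were still called (Mmp2 and Twist1), with normexp background correction 6, and under a scan day block 11. The difference was above 0 for 11 of 11 under each of these and on the last scan day alone.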

How the results depend on the processing

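No paired analysis was possible because the groups compared came from different animals and share no replicate numbers within a state. None of the called averages of the 10 genes changed sign under the alternatives run, and single list genes were not followed except the 23 called for the difference between states, which kept their sign under 4 settings. The median depletion difference of the 10 genes in D21 rats (1.41) was 0.75 with normexp, 0.52 with a slide block, 0.84 with a scan day block, and 0.97 on the last scan day alone, a setting chosen after seeing the data, and 1.12 to 1.53 with 1 rat left out. In NP rats (3.99) it was 2.52 with normexp and 3.82 to 4.18 with 1 rat left out, and the median difference between states (2.92) was 2.05 and 2.78 to 3.24. For the average of D21 over NP, 824 genes higher and 368 lower became 270 and 32 with normexp, 372 and 119 with no filter, 1850 and 1861 with array weights, 199 and 63 with slide as a block, 199 and 119 on the last day alone, and 671 and 615 with the percentile over detected probes. Leaving out 1 rat gave 381 (D21 whole rat 7) to 1401 (D21 Mφ-depleted rat 4) higher and 111 to 1256 lower. Of the 10 genes, for which the average is no test, 6 passed the threshold, 1 with normexp, 3 of the 5 tested when every array had to be above background, and 5 to 7 with 1 rat left out. List genes called for depletion in D21 rats (23) were 12 with normexp, 15 with no filter, 1 with a slide block, 9 with a scan day block, 10 on the last day alone, 9 with the methods' t-test at its threshold and 0 after Benjamini-Hochberg (23 of 66 at an unadjusted p below 0.05), and 15 to 29 with 1 rat left out. In NP rats (47) they were 20 with the methods' t-test after Benjamini-Hochberg and 43 to 48. For the difference between states (23) they were 8 with normexp, 10 with no filter, 35 with array weights, 3 with slide as a block, 4 on the last day alone and 10 (without D21 whole rat 7) to 32 (without D21 Mφ-depleted rat 4). For the average (25) they were 14, 15, 38, 9, 12 and 15 to 34 in the same order. Counts of all genes for the average moved by over 1.5 times without NP Mφ-depleted rat 5 (507 and 165), D21 Mφ-depleted rat 1 (507 and 151), NP whole rats 8 (447 and 138) and 10 (540 and 180) and D21 whole rats 5 (528 and 187) and 6 (492 and 147). List counts did so in D21 rats without D21 Mφ-depleted rat 1 or D21 whole rat 5 or 6 (15 each), for the difference without D21 Mφ-depleted rat 2, NP whole rat 8 or 10 or D21 whole rat 6 (13 each), and for the average without NP whole rat 8 or D21 whole rat 5 or 6 (16 each). The causes were not tested. Array weights stopped before full convergence. The percentile over detected probes moved the median of all genes by 0.19 for depletion in D21 rats and by -0.14 for the difference between states, and normexp moved it by 0.13 for the average.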
